A study of Mus musculus with 2 samples.

Results

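The genes described here are 9 axon guidance genes of the Slit, Robo and netrin systems: the ligands Slit1, Slit2, Slit3 and Ntn1, and the receptors Robo1, Robo2, Dcc, Unc5c and Unc5d. They were chosen by name and make up 9 of the 19575 genes in the deposited count table, where all 9 were found. Their RNA was followed in single nuclei from the dorsal part of the adult mouse lumbar spinal cord (L3-L5), in inhibitory and excitatory neurons of the dynorphin lineage. All mice carried Pdyn-IRES-Cre(+/-) and R26-LSL-Sun1.eGFP(+/-), so that Cre made under the prodynorphin gene Pdyn switched on a green nuclear envelope label, on which nuclei were sorted. Such a label is permanent and marks any cell that made Cre at some time. Library naive pooled 8 adult mice of either sex that had only isoflurane at postnatal day 3, and library injured pooled 8 adult mice whose left hindpaw had a plantar incision at postnatal day 3; the naive mice were littermate controls. The exact adult age is not given in the sources used here. Each group is 1 pooled library, so that groups could not be tested against each other. Every interval below is a 95% interval for counting error only, which leaves out variation between mice.

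Slit proteins are secreted, bind Robo receptors, and are best known for repelling axons from the midline of the spinal cord. Netrin-1, the product of Ntn1, attracts axons that carry Dcc and repels axons whose Dcc works together with an Unc5 receptor. In the developing cord these genes set where commissural axons cross, and many of them stay on in adult neurons.

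The naive library held 4063 nuclei with a median of 6955 UMIs (unique transcript counts), and the injured library 3547 nuclei with a median of 8464. Nuclei were clustered without the guidance genes and named by fixed markers. Inhibitory-like nuclei numbered 2559 naive and 2153 injured, and excitatory-like nuclei 960 and 841. The 9 inhibitory markers summed to 1113 and 1108 CPM (counts per 1000000 UMIs) in inhibitory-like nuclei and to 70.1 and 56.9 CPM in excitatory-like nuclei. The vesicular glutamate transporter gene Slc17a6 stood at 4.21 and 3.36 CPM in the former and at 220.3 and 210.4 CPM in the latter. The full list of 10 excitatory markers was higher in inhibitory-like nuclei (3660 CPM in both libraries) than in excitatory-like nuclei (1715 and 1625 CPM). The choice between these names therefore rests on the transmitter genes. Pdyn itself had a UMI in 20.9% and 20.8% of inhibitory-like nuclei and in 25.2% and 23.8% of excitatory-like nuclei. The libraries shared 3 cell barcodes. The unnamed nuclei (7.85% in the naive library, 11.2% in the injured one) were kept out of both classes. Among them were cluster 13 (122 naive and 89 injured nuclei) and cluster 2c (36 and 38). Their inhibitory transmitter genes summed to 1083 and 517.5 CPM, beside 5.52 and 11.2 CPM of Slc17a6. They were left unnamed because their 10 leading genes held more markers of another class than of their own.

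In both neuron classes Robo2 RNA stood highest for the length of the gene and Ntn1 RNA lowest. Scaled to 100 kb of genomic span, the level in inhibitory-like nuclei was 389.6 CPM naive and 431.1 CPM injured for Robo2. Unc5c followed with 294.4 and 332.3, and Slit1 with 116.3 and 112.0 CPM per 100 kb. Dcc, Unc5d, Slit2, Robo1 and Slit3 lay between 14.2 and 60.1 CPM per 100 kb, and Ntn1 at 3.01 and 3.11. In excitatory-like nuclei the order began with Robo2 (212.6 and 239.4 CPM per 100 kb), Slit1 (167.9 and 150.6) and Slit2 (140.1 and 163.1), and ended with Slit3 (17.9 and 17.2) and Ntn1 (1.96 and 1.83). Slit2 was thus the sixth of these genes on this scale in inhibitory-like nuclei, and in excitatory-like nuclei the third (naive) and the second (injured). The scale takes counts to grow with span, which was not tested for these genes. Without it Robo2 was still highest and Ntn1 lowest in both classes. In excitatory-like nuclei Dcc (654.3 and 750.8 CPM) then followed Robo2, and Slit1 (240.9 and 215.9 CPM) stood below Slit2, Unc5c, Robo1 and Unc5d.

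**Figure D1:**
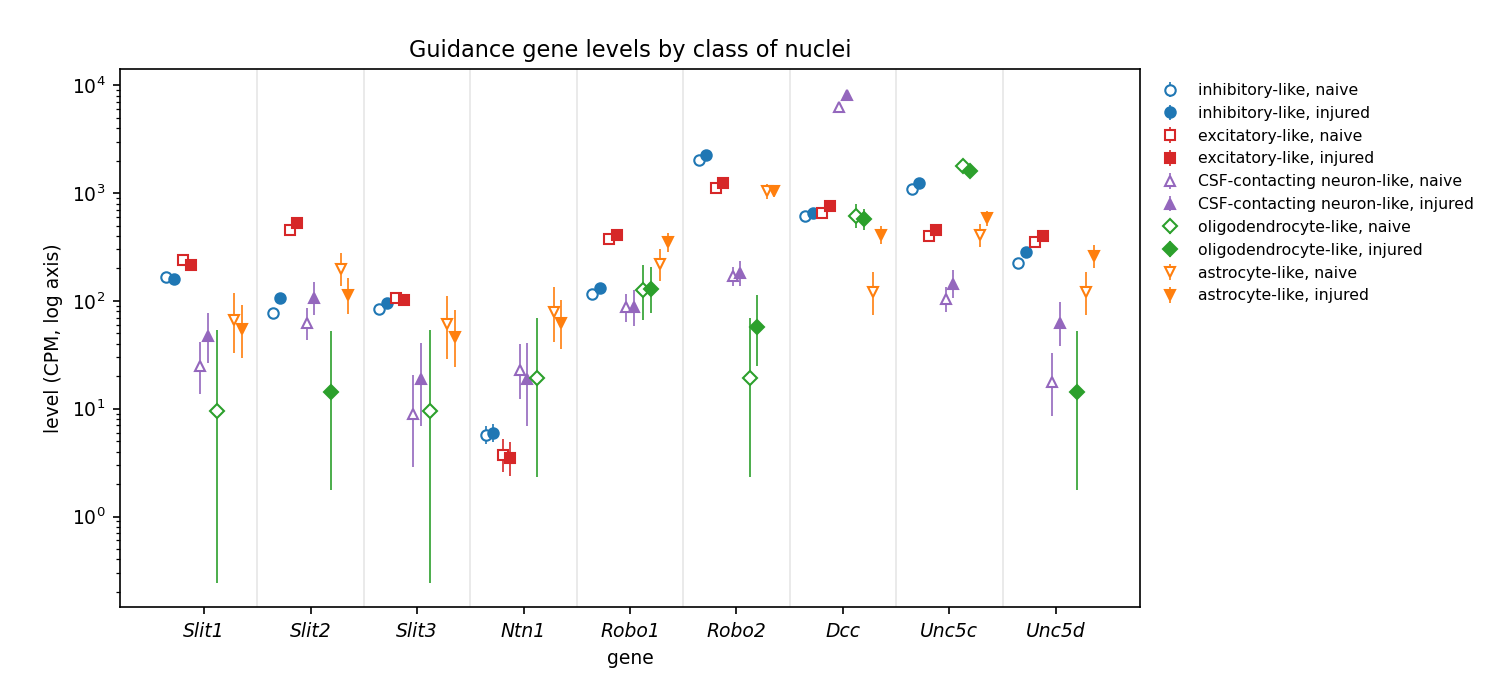
Level of each guidance gene (CPM, log axis) in inhibitory-like, excitatory-like, CSF-contacting neuron-like, oligodendrocyte-like and astrocyte-like nuclei, open symbols naive and filled symbols injured, bars 95% Poisson intervals; levels at 0 are not drawn. Slit2 and Robo1 lie higher in excitatory-like nuclei, Robo2 and Unc5c higher in inhibitory-like nuclei, and Dcc reaches 6218 and 8072 CPM in CSF-contacting neuron-like nuclei.

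The classes differed most in Slit2, Robo1 and Unc5c. Slit2 stood at 77.7 CPM naive and 106.6 CPM injured in inhibitory-like nuclei, and at 454.9 and 529.3 CPM in excitatory-like nuclei. Its inhibitory over excitatory ratio was 0.171 (0.161 to 0.182) in the naive and 0.201 (0.191 to 0.212) in the injured library. Robo1, a Slit receptor, stood at 116.4 and 132.9 CPM in inhibitory-like and 373.9 and 404.1 CPM in excitatory-like nuclei, ratios of 0.311 (0.294 to 0.329) and 0.329 (0.312 to 0.346). Unc5c, a netrin receptor of the repulsive kind, went the other way, with 1088 and 1228 CPM against 397.0 and 449.9 CPM, ratios of 2.74 (2.64 to 2.84) and 2.73 (2.64 to 2.82). In each of these 3 genes the levels of the classes did not overlap between libraries. The same held for every other member except Dcc, so it does not set these 3 genes apart. They were picked for their large class ratios, and the share of all genes with such levels was not computed.

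At a threshold of 2-fold in the same direction in both libraries, 1 of 9 members (Unc5c) was higher in inhibitory-like nuclei, where 3.7% of the 13744 genes with at least 100 UMIs were. Another 2 of 9 (Slit2 and Robo1) were lower, where 4.83% of genes were. Long genes passed this threshold more often: of genes spanning at least 100 kb, as all 9 members do, 7.44% were higher and 11.8% lower. Robo2 came close, with ratios of 1.83 and 1.80, from 2026 and 2242 CPM in inhibitory-like and 1106 and 1245 CPM in excitatory-like nuclei. Slit1 was lower in inhibitory-like nuclei in both libraries (0.693 and 0.744). The ratios of Slit3 (0.794 and 0.942), Dcc (0.941 and 0.878), Unc5d (0.629 and 0.7004) and Ntn1 (1.54 and 1.70) took the other sign in at least 1 library under another clustering, another way to class nuclei, another subset of nuclei or equal depth.

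Within the inhibitory-like class the clusters high in Slit2 were also high in Robo1, and 3 of the 4 clusters with most naive nuclei had almost none of either. Cluster 0 (led by Pde11a, Nox4 and Igf1; 459 naive and 324 injured nuclei) held 2.35 and 3.62 CPM of Slit2 and 2.02 and 3.62 CPM of Robo1. Cluster 1 (Pde11a, Mlxipl and Gucy2d; 399 and 344 nuclei) held 1.29 and 1.67 CPM of Slit2 and 3.88 and 4.17 CPM of Robo1, and cluster 3 (Igf1, Col24a1 and Lama2; 351 and 273 nuclei) 4.46 and 3.24 CPM of Slit2 and 6.68 and 7.69 CPM of Robo1. These levels rest on 3 to 10 UMIs of a gene in each library in clusters 0 and 1. In cluster 2a, led by Fign and Pcdh11x, Slit2 stood at 634.4 and 689.5 CPM and Robo1 at 564.3 and 560.7 CPM, within the range of excitatory-like clusters. Clusters 2g, 8, 11, 12 and 25 were high in both genes, with Slit2 from 181.1 to 446.0 CPM and Robo1 from 223.6 to 696.0 CPM.

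Clusters 4, 5, 9 and 18 lay between in Robo1, and of these 9 and 4 in Slit2: cluster 4 (Nos1 and Sema3c) held 15.1 and 18.7 CPM of Slit2 beside 151.8 and 139.0 CPM of Robo1. With 366 naive and 239 injured nuclei, it held 19.1% and 11.4% of the Robo1 UMIs of the class but 2.85% and 1.91% of its Slit2 UMIs. Among excitatory-like clusters Robo1 varied little, from 224.6 to 568.1 CPM over 10 clusters and both libraries. Slit2 there varied from 92.5 to 934.4 CPM, lowest in cluster 19 (led by Esr1, Myo5b and Sulf1). Over 13 inhibitory-like clusters Pearson's r of log2(CPM + 1) between Slit2 and Robo1 was 0.92 in each library, while over 10 excitatory-like clusters it was -0.14 naive and 0.37 injured. The clusters share libraries and depth, so these values describe the pattern and carry no p.

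Shares of single nuclei were also taken, pooled over all clusters of a class, so they carry the cluster pattern given above. Co-detection within clusters was not computed, and these shares are no separate support for a pairing of Slit2 with Robo1. In nuclei thinned to 3000 UMIs each, a Robo1 UMI was found in 55.6% (49.6 to 61.5) of naive nuclei with a Slit2 UMI and in 14.3% (12.8 to 15.8) of those without. In the injured library the shares were 58.0% (52.2 to 63.6) and 13.4% (11.9 to 15.1). Among excitatory-like nuclei they were 61.8% against 59.2% naive and 63.8% against 62.3% injured, with intervals that overlap. For Robo2 the shares in inhibitory-like nuclei with and without Slit2 were 90.5% and 97.9% naive and 91.3% and 98.4% injured. For Slit3 they were 7.75% and 16.1%, and 8.00% and 16.9%. In both genes the lower share was the one beside Slit2, with intervals that do not overlap.

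**Figure D2:**
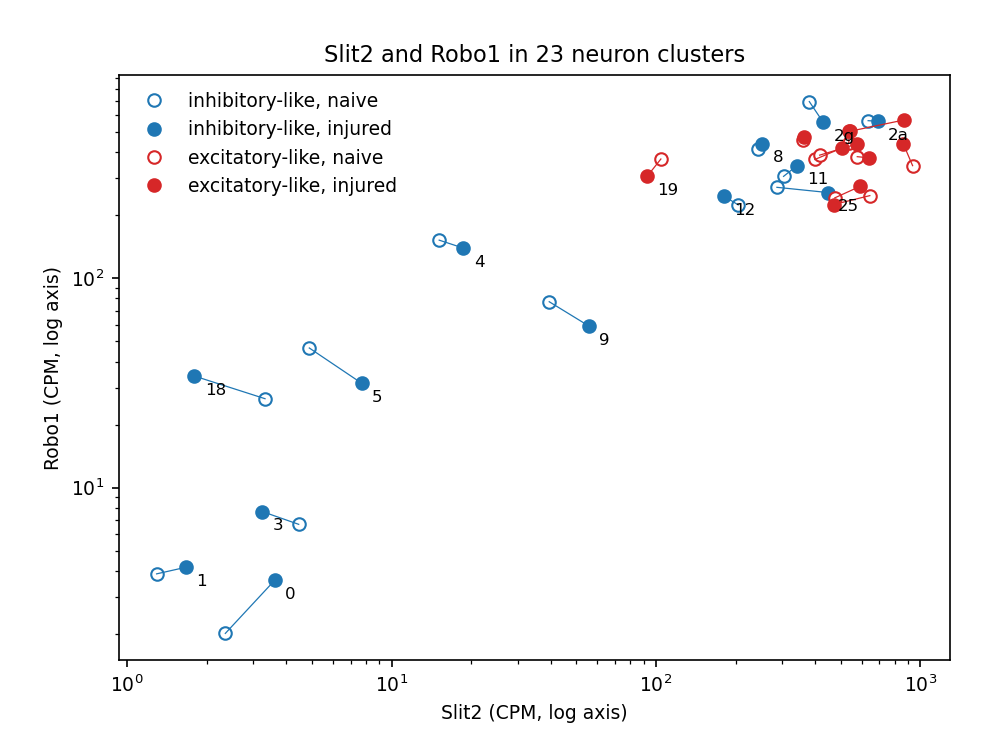
Slit2 against Robo1 (CPM, both axes log) in 13 inhibitory-like and 10 excitatory-like clusters, open points naive and filled points injured, joined for each cluster. Inhibitory-like clusters run from clusters 0 and 1, at 4.17 CPM or less, to 2a and 2g above 380 CPM, where they join the excitatory-like clusters.

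The bases before the start of Slit2 and Robo1 are shown because the levels of these genes ran together over inhibitory-like clusters (r = 0.92 in each library). Over excitatory-like clusters they did not (r = -0.14 naive and 0.37 injured). Whether the genes share any control was not tested. The bases were read from the RefSeq promoter table of build GRCm38.p6, which held 5 of the 9 members. Bases in annotated exons are left out, and motif matches are in capitals. Searched on both strands were the E-box CANNTG, the homeodomain core TAATTA, the TATA box TATAAA and the GC box GGGCGG, which do not overlap each other here. The Slit2 window (chr5:47982905-47983137, plus strand, outside annotated exons, ending 1 base before the annotated start of the gene) and the Robo1 window (chr16:72662899-72663148, plus strand, before a start inside the gene and outside exons) read:
Slit2: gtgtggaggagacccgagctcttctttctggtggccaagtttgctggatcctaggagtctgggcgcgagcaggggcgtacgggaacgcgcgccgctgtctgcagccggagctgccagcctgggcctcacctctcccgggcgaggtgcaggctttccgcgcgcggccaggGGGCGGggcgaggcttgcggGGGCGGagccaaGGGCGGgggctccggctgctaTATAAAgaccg
Robo1: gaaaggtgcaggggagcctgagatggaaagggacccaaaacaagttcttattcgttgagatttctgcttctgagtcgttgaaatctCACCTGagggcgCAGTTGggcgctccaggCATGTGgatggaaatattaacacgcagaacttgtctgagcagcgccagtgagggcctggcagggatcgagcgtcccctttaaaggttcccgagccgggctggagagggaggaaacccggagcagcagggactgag
The Slit2 window held GGGCGG 3 times and TATAAA 1 time, with 23 CG pairs and 70.4% G or C; the Robo1 window held CANNTG 3 times, with 11 CG pairs and 56.0% G or C. No motif was in both. Of 32851 windows of 250 bases before a start, 66.2% held CANNTG, 32.7% GGGCGG, 12.4% TATAAA and 4.84% TAATTA.

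Slit1, another secreted Robo ligand, was the most even of the Slits among inhibitory-like clusters, 6.80-fold from the highest to the lowest beside 452.6-fold for Slit2 and 169.8-fold for Slit3. Among excitatory-like clusters its range of 31.6-fold was wider than that of Slit2 (9.11-fold). It stood at 166.8 CPM naive and 160.7 CPM injured in inhibitory-like and at 240.9 and 215.9 CPM in excitatory-like nuclei. Most clusters lay between 117.7 and 359.1 CPM in either library. Its low values were in clusters 2a, 2g, 12, 2e, 2f, 14a and 20, from 9.49 to 79.4 CPM in either library. The highest were clusters 7 (359.1 and 355.5 CPM) and 10 (336.6 and 335.2 CPM), both excitatory-like. Neighbours in the order of clusters differed beyond their intervals at 0 of 22 steps in the naive library and 1 of 22 in the injured library. Over 21 clusters of at least 50 nuclei, Slit1 ran against Slit2 (r = -0.33) and with Robo2 (r = 0.60).

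Slit3 was held by few clusters. Cluster 4, led by Nos1 and Sema3c and with Slit3 itself among its 10 leading genes, held 54.6% of the Slit3 UMIs of the inhibitory-like class. Its level there was 333.1 CPM naive and 448.5 CPM injured. Cluster 18 (Nos1 and Col24a1) followed with 240.9 and 328.5 CPM and cluster 3 with 118.8 and 161.2 CPM. Cluster 5 (Rspo3, Gucy2d and Prkcd), 8 (Nppc and Cdh3), 9 (Tac2 and Erbb4) and 11 (Fbxl7 and Nxph2) held 8.13 CPM or less in either library. Among excitatory-like clusters, cluster 6 (Unc5cl, Moxd1 and Nell1) held 56.4% of Slit3 UMIs, at 243.9 and 230.8 CPM. Slit3 levels over clusters did not follow those of Slit2 (r = -0.00 over 21 clusters).

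Ntn1, the netrin ligand, was scarce: 104 UMIs naive and 108 injured in all inhibitory-like nuclei (5.76 and 5.96 CPM), and 32 and 32 UMIs in excitatory-like nuclei (3.75 and 3.51 CPM). These few counts were not spread evenly. Cluster 12, inhibitory-like and led by Cdh9, Rgs6 and Zfhx3, held 78.8% of the Ntn1 UMIs of its class, at 75.7 CPM naive and 72.6 CPM injured. Cluster 20, excitatory-like and led by Tac1, Meis2 and Megf11, held 65.6% of those of its class, at 49.4 and 29.99 CPM. Apart from clusters 2g, at 16.1 CPM naive and 0 injured, and 25, at 0 naive and 9.49 CPM injured, the other clusters stood at 7.98 CPM or less. Astrocyte-like nuclei held 78.6 and 62.2 CPM of Ntn1, but from 13 and 16 UMIs. In this class the 6 ependymal markers summed to 1578 and 1124 CPM, against 13.3 and 12.9 CPM in inhibitory-like nuclei. Its 7 astrocyte markers summed to 2389 and 2699 CPM. The values of this class can therefore not be credited to astrocytes alone.

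Robo2, the other Slit receptor measured, was found in nearly every nucleus of both named neuron classes. It had a UMI in 99.0% and 99.5% of inhibitory-like and 96.8% and 98.1% of excitatory-like nuclei, but in 21.7% and 22.9% of CSF-contacting neuron-like nuclei. Astrocyte-like nuclei held 1034 and 1046 CPM of Robo2, with a UMI in 51.9% and 74.5%. In oligodendrocyte-like nuclei, which have a median of only 2146.5 and 2593 UMIs, Robo2 was found in 4.76% and 15.6%. Over clusters its level ran against that of Robo1, with exceptions such as cluster 12, which was in the lower part of the order of both genes in the naive library. Robo2 was highest in clusters 1 (2742 and 3093 CPM) and 0 (2494 and 2929 CPM), where Robo1 was nearly absent. It was lowest in cluster 20 (372.2 and 412.4 CPM), 2e (490.7 and 540.2 CPM), 12 (662.8 and 660.5 CPM), and, in the injured library, 2g (628.5 CPM). Over 13 inhibitory-like clusters r between Robo1 and Robo2 was -0.71 in both libraries, and over 10 excitatory-like clusters -0.52 naive and -0.58 injured.

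Dcc, the attractive netrin receptor, differed little between the classes as wholes and 24.4-fold among inhibitory-like clusters. It stood at 616.0 and 659.5 CPM in inhibitory-like and at 654.3 and 750.8 CPM in excitatory-like nuclei. Cluster 4 was highest, with 1836 CPM naive and 2170 CPM injured, and held 39.6% of the Dcc UMIs of its class. Clusters 5 (115.6 and 54.0 CPM) and 1 (106.8 and 64.6 CPM) were lowest, and cluster 0 (181.4 and 149.6 CPM) came next. Excitatory-like clusters ranged from 374.2 CPM (cluster 19, injured) to 1784 CPM (cluster 14a, injured). Dcc ran with Slit2 (r = 0.66) and Robo1 (r = 0.68) over 21 clusters.

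A small class outside the named comparison had far more Dcc. CSF-contacting neuron-like nuclei, which line the central canal and are named here by Pkd2l1 and 5 other markers, held 6218 CPM of Dcc naive (6014 to 6427) and 8072 CPM injured (7763 to 8391), with a UMI in 100% of 106 and 48 nuclei. In the same nuclei Robo2 (168.6 and 182.2 CPM) and Unc5c (104.7 and 144.5 CPM) were lower than in either named neuron class. The class had 2 Pdyn UMIs in each library. Its 6 markers summed to 14.95 and 14.2 CPM in inhibitory-like nuclei, with Gata2 and Gata3 at 0, and to 14.5 and 10.2 CPM in excitatory-like nuclei.

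Unc5c and Unc5d, receptors of the repulsive netrin response, differed in their pattern. Unc5c was broad in inhibitory-like nuclei, with a UMI in 94.3% and 94.6%, and ranged from 286.2 CPM (cluster 9, naive) to 2098 CPM (cluster 18, injured). Among excitatory-like clusters, 20 (1280 and 1443 CPM) and 14a (1161 and 1497 CPM) were highest, and the others stood at 458.7 CPM or less. Outside neurons, oligodendrocyte-like nuclei held 1777 and 1616 CPM of Unc5c and 614.8 and 569.9 CPM of Dcc, while their Slit1, Slit2 and Slit3 counts were 2 UMIs or fewer in each library.

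Unc5d was patchy. It stood at 223.4 and 281.5 CPM in inhibitory-like and 355.3 and 401.9 CPM in excitatory-like nuclei, with a UMI in 40.8% and 43.6%, and in 46.7% and 52.0%, of nuclei. Cluster 6 held 52.9% of the Unc5d UMIs of the excitatory-like class (788.0 and 842.7 CPM). Clusters 12 (708.8 and 842.5 CPM) and 2g (519.3 and 973.3 CPM) were the highest inhibitory-like clusters, and cluster 5 the lowest, with 13.03 and 4.50 CPM. In inhibitory-like nuclei at equal depth, an Unc5c UMI was in 83.0% (80.9 to 85.0) of naive nuclei with a Dcc UMI and in 92.02% (90.3 to 93.5) of those without. In injured nuclei the shares were 81.7% (79.3 to 84.0) and 92.9% (91.2 to 94.4), again lower beside Dcc. These shares too pool all clusters of the class. Excitatory-like nuclei showed the opposite order, 52.2% against 48.7% naive and 63.0% against 55.5% injured, with intervals that overlap.

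**Figure D3:**
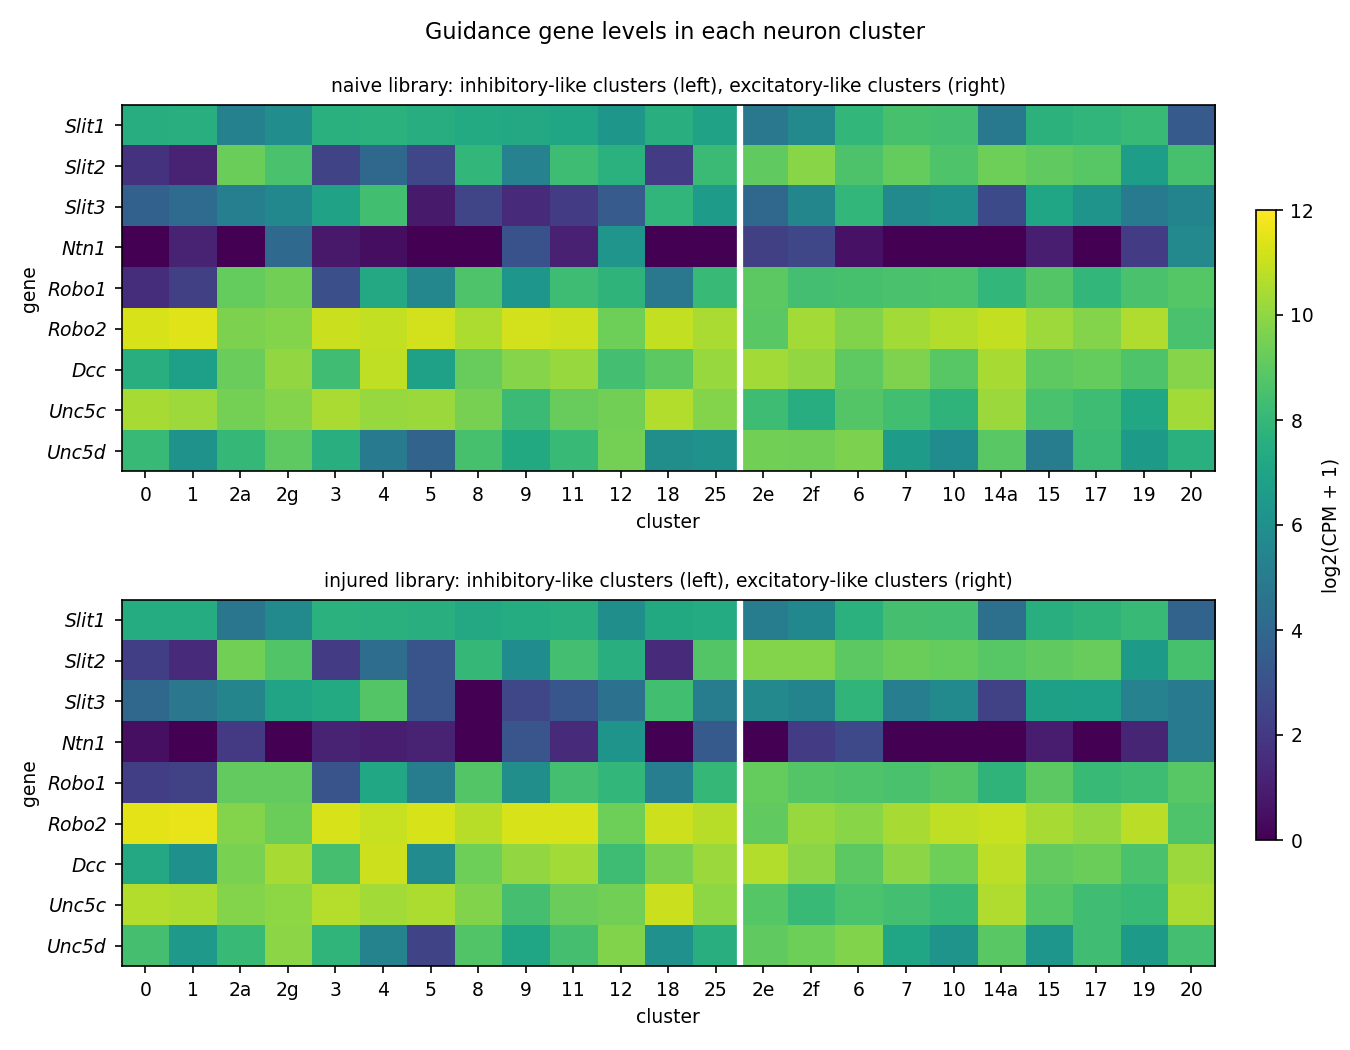
Level of each guidance gene, as log2(CPM + 1), in the 23 neuron clusters with at least 20 nuclei in each library, naive above and injured below. Slit2 and Robo1 are dark together in clusters 0, 1 and 3, Ntn1 is dark except in clusters 12 and 20, and the panels of the libraries look alike.

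The cluster pattern recurred in the other library. Over the 23 clusters r between the naive and injured values of log2(CPM + 1) was 0.99 for Slit2 and Robo1, 0.98 for Slit1, Robo2, Dcc and Unc5c, 0.95 for Unc5d, 0.88 for Slit3 and 0.67 for Ntn1. The median gap between libraries on that scale ran from 0.16 (Slit1) to 0.46 (Slit3). The range over clusters in the naive library ran from 2.88 (Robo2) to 8.67 (Slit2). Both libraries entered 1 clustering, which left these genes out.

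In the comparison of the injured with the naive library, which asks what a neonatal incision leaves behind in adult neurons of this lineage, most guidance genes were slightly higher in the injured library in both classes. In inhibitory-like nuclei 8 of 9 members had ratios above 1, with a median log2 ratio of 0.17, and in excitatory-like nuclei 6 of 8 with at least 100 UMIs, with a median of 0.17. The median over all genes was -0.08 in each class, and 30.1% of genes in inhibitory-like and 33.6% in excitatory-like nuclei had ratios above 1. Of genes of at least 100 kb, as all members are, 64.3% and 63.3% did, and of those of at least 200 kb 76.6% and 77.3%. Gene span moved with the ratio, and all members are long: from a median of -0.18 for genes under 20 kb to 0.14 in inhibitory-like and 0.12 in excitatory-like nuclei for genes of at least 500 kb, of which 90.95% and 85.6% had ratios above 1. Members span 143.4 kb (Slit1) to 1097.4 kb (Dcc). The part of span in the members' ratios was not tested.

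**Figure D4:**
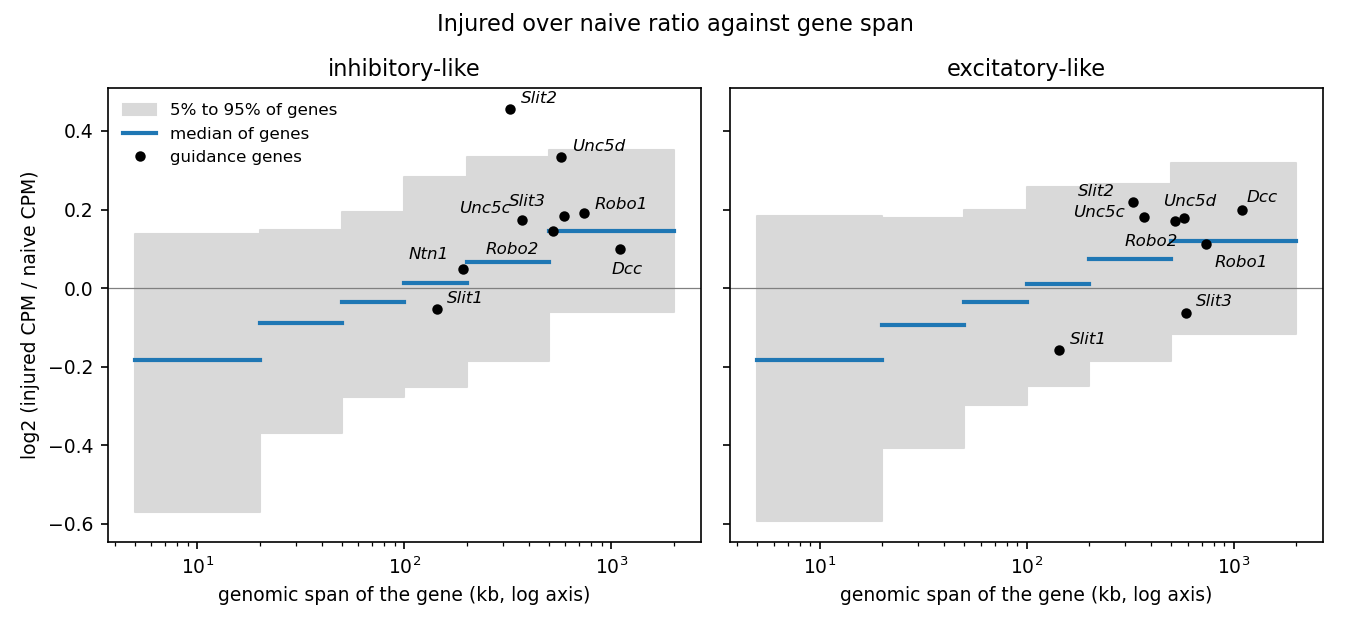
Log2 ratio of injured over naive CPM against genomic span (kb, log axis) in each class; blue lines are medians and grey bands the middle 90% of genes with at least 100 UMIs in 6 bins of span, the first drawn from 5 kb and the last to 2000 kb, and black points the guidance genes. Slit2 lies above the band in inhibitory-like nuclei, and the other members lie within the bands.

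Called at a ratio of at least 1.3, Slit2 was the 1 of 9 members higher in inhibitory-like nuclei of the injured library, where 1.17% of 12712 genes, and 2.86% of genes of at least 100 kb, were higher. None of 9 was lower, where 8.69% of all genes and 2.1% of long genes were. In excitatory-like nuclei none of 8 was called in either direction, where 1.15% of 11231 genes (1.74% of long ones) were higher and 9.29% (1.6%) lower. At 1.5-fold no member was called in either class. At that threshold 0.189% of all and 0.582% of long genes were higher, and 2.13% and 0.582% lower, in inhibitory-like nuclei. In excitatory-like nuclei 0.125% and 0.235% were higher and 2.34% and 0.424% lower. The Slit2 ratio in inhibitory-like nuclei was 1.37 (1.28 to 1.47), a log2 ratio of 0.46 against a 95th percentile of 0.33 for genes of 200 to 500 kb. In excitatory-like nuclei it was 1.16 (1.12 to 1.21).

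The Slit2 difference in inhibitory-like nuclei moved with the make-up of the class. It was present in nuclei with Xist and no Y-linked UMI (log2 0.46) and in nuclei with Y-linked and no Xist UMI (0.65). Both sets come from the same pooled library of each group, so they do not replicate the difference. Within the 13 clusters with at least 20 nuclei in each library, 10 ratios were above 1 but only cluster 25 had an interval above 1 (1.56, 1.11 to 2.21). Smaller groups of the class were left out of that count. Of these, 2h stood at 245.2 CPM naive and 401.7 CPM injured (64 and 159 UMIs). Groups 2m (54.3 and 277.0 CPM, 8 and 29 UMIs), 2k (498.4 and 566.1 CPM) and 24 (0 and 3.05 CPM) were also higher. Group 2j was lower (827.85 and 750.9 CPM). Intervals for the ratios of these groups were not computed. The small groups of this class taken from clusters that mixed transmitter genes were 2a, 2g, 2h, 2j, 2k and 2m. Together they held 6.15% of the class UMIs naive and 8.25% injured, and 34.0% and 42.5% of its Slit2. The share of Slit2 was higher in the injured library in 2a (14.2% and 22.7%), 2h (4.56% and 8.23%) and 2m. It was lower in 2g (5.06% and 3.98%), 2j (6.20% and 3.36%) and 2k. Without all these groups the log2 ratio of Slit2 was 0.29. With each cluster at the same weight in both libraries it was 0.17, and both values lay under the 1.3-fold line.

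Slit3 went the other way under that weighting. Its class ratio in inhibitory-like nuclei was 1.14 (1.06 to 1.22), and with clusters at the same weight its log2 ratio was 0.44, past the 1.3-fold line. The ratio was 1.35 (1.23 to 1.48) in cluster 4, 1.36 (1.09 to 1.71) in cluster 18 and 1.36 (1.17 to 1.58) in cluster 3, the 3 inhibitory-like clusters with most Slit3. Of 13 inhibitory-like clusters 11 had ratios above 1. The exceptions were cluster 25, at 97.3 CPM naive and 33.2 CPM injured (ratio 0.342, 0.121 to 0.848), and cluster 8, with 5 UMIs naive and 0 injured. Cluster 4 made up 14.6% of the class UMIs naive and 10.9% injured. In excitatory-like nuclei the Slit3 ratio was 0.958 (0.873 to 1.05), and in cluster 6 it was 0.946.

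Slit1 was the member with ratios below 1 in both classes: 0.963 (0.915 to 1.014) in inhibitory-like nuclei, where scaling by the median ratio of all genes or thinning to equal depth turned its sign, and 0.896 (0.842 to 0.954) in excitatory-like nuclei. Ntn1 had a ratio of 1.03 (0.783 to 1.37) in inhibitory-like nuclei; at this depth a 1.3-fold difference lies inside its interval. In excitatory-like nuclei it had too few counts, with 0.937 (0.556 to 1.58).

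**Figure D5:**
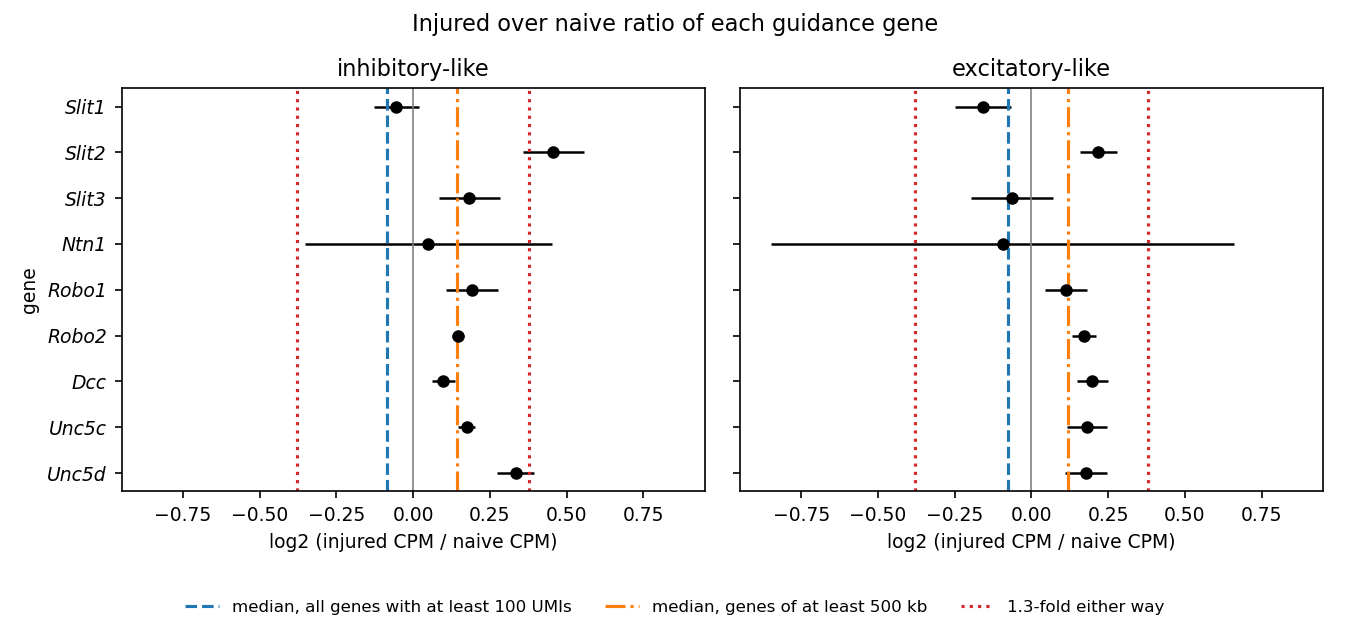
Log2 ratio of injured over naive CPM for each guidance gene in inhibitory-like (left) and excitatory-like (right) nuclei, bars 95% counting intervals. Slit2 in inhibitory-like nuclei lies past the 1.3-fold line. All 9 members lie above the median of all genes in inhibitory-like nuclei, and all but Slit1 and Ntn1 in excitatory-like nuclei. The second median drawn, of genes of at least 500 kb, lies at 0.14 (left) and 0.12 (right). Slit1, Dcc and Ntn1 lie below it in inhibitory-like nuclei, and Slit1, Slit3, Robo1 and Ntn1 in excitatory-like nuclei.

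Receptors differed by less than 1.3-fold in each class. In inhibitory-like nuclei the ratio was 1.14 (1.08 to 1.21) for Robo1, 1.11 (1.09 to 1.12) for Robo2, 1.07 (1.04 to 1.10) for Dcc, 1.13 (1.11 to 1.15) for Unc5c and 1.26 (1.21 to 1.31) for Unc5d. In excitatory-like nuclei these ratios were 1.08, 1.13, 1.15, 1.13 and 1.13, each with an interval above 1. Unc5c was higher in the injured library in 13 of 13 inhibitory-like clusters, from 1.012 to 1.32, and in 9 of 10 excitatory-like clusters, up to 1.996 in cluster 19 (139.7 and 278.9 CPM). Robo2 was higher in 11 of 13 and 9 of 10, with cluster 2g lower at 0.725 (0.565 to 0.927). All clusters come from the same pooled library of each group, so such counts of clusters, for any member, do not replicate a difference. The same counts for other genes were not computed.

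Dcc moved in opposite directions among inhibitory-like clusters. It was lower in the injured library in clusters 5 (0.467, 0.352 to 0.616), 1 (0.605, 0.492 to 0.742) and 0 (0.825, 0.721 to 0.943), the 3 clusters where it was lowest to begin with. It was higher in 9 of 13, among them clusters 18 (1.48, 1.28 to 1.73), 2g (1.31, 1.08 to 1.59) and 4 (1.18, 1.13 to 1.23). The 3 clusters with lower Dcc had Unc5c ratios of 1.24, 1.23 and 1.13, with intervals above 1. CSF-contacting neuron-like nuclei, the class richest in Dcc, were 106 naive and 48 injured in number; the part of RNA freed from them in the low Dcc values was not tested.

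Genes with the most similar pattern over the 21 clusters of at least 50 nuclei, among 6666 genes, are given by Pearson's r of log2(CPM + 1). For Slit2 they were Edil3 (0.95), Rasgrf2 (0.94) and Btbd3 (0.93). For Robo1 they were Dpp10 (0.93), Slit2 (0.93) and Rasgrf2 (0.92), while Robo1 was not among the 3 nearest genes of Slit2. The 21 clusters are of both classes. Over excitatory-like clusters alone r between Slit2 and Robo1 was -0.14 naive and 0.37 injured. Slit1 was nearest to the nuclear factor I genes Nfib (0.92) and Nfix (0.87) and to Chl1 (0.87), and Robo2 to Plekhh2 (0.89), Zeb2 (0.86) and Pot1b (0.85). Dcc was nearest to Slc6a7 (0.90), Akap12 (0.90) and Kcnn2 (0.87), and Unc5c to Gab1 (0.87), Trpc5 (0.86) and Zcchc16 (0.82). The nearest genes of Slit3 were Lamc1 (0.84), Cplx2 (0.80) and Hspa12a (0.80), those of Ntn1 included Actr6 (0.75) and Syp (0.74), and those of Unc5d Vcpip1 (0.67), Tra2a (0.65) and Arfgef3 (0.65).

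A list of 61 other genes of these pathways (family members, further ligands and binding partners, and cytoplasmic partners), 58 of them in the table, differed little between libraries. In inhibitory-like nuclei 0 of 54 with at least 100 UMIs were called higher, where 1.17% of all genes were, and 2 lower, where 8.69% were: Dock1, an exchange factor that acts with Dcc (10.7 and 6.29 CPM, ratio 0.585, 0.460 to 0.741), and Maged1 (52.5 and 38.7 CPM, 0.736). The highest ratios there were those of Srgap1, whose product binds Robo receptors (1.29), Flrt2 (1.27), Nell1 (1.26) and Dscam, a netrin receptor (1.17), and the next lowest those of Sdc3 (0.816) and Gpc1 (0.826). The list median was -0.03 beside -0.08 for all genes.

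In excitatory-like nuclei 0 of 51 were higher, where 1.15% of all genes were, and 3 lower, where 9.29% were: Maged1 (0.702), Rgma (0.723) and Robo3, the divergent Robo of commissural neurons (22.7 and 16.9 CPM, 0.744, 0.598 to 0.924). Rgmb followed (0.790), and Nell1 (1.23), Elmo1 (1.12), Trim67 (1.12) and Abl2 (1.11) were highest; the list median was -0.04. Between classes, 4 of 54 list genes were higher in inhibitory-like nuclei, where 3.7% of all genes and 7.44% of those of at least 100 kb were, and 4 lower, where 4.83% and 11.8% were. Ntng2, a membrane-bound netrin, had ratios of 5.01 and 4.81, Ntn4 2.62 and 2.37, and Elmo1 2.49 and 2.58. Nell1 had 0.135 and 0.139, Dscam 0.202 and 0.222, and Flrt2 0.236 and 0.289.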

How the data were processed

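Per the labels, nuclei went through 10x Genomics 3' v3 chemistry; per the submitters' processing notes, Cell Ranger 3.0.2, Seurat (version not stated) and build mm10 were used. Annotation and any use of intronic reads: not given in the sources used here. UMI counts are what the deposited table holds. The authors' normalized values equal, within 6e-15, the natural log of 1 plus the count per 10000 UMIs of the nucleus, and served as an alternative.

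Nuclei of the 2 libraries entered 1 clustering in scanpy 1.11.5 (2000 variable genes without 67 guidance genes, 30 components, 15 neighbours, Leiden resolution 1). Classes were rebuilt from fixed markers, at least 3 detected per name, so they can differ from the study's own; mixed clusters were clustered again. Scrublet called 2.61% of naive and 0.197% of injured nuclei doublets, so it did not work in the injured library, and none were removed.

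Counts were summed per class or cluster and scaled to CPM, with exact Poisson, Clopper-Pearson and conditional binomial intervals (95%), tested on simulated counts. Spans and overlaps are from GENCODE M21; no same-strand gene in the table overlaps a member, and antisense genes overlap Slit2 and Unc5c (44, 290 and 237 UMIs). All 9 members were named, plus the extremes of the pathway list (4 each way per class, 3 each way between classes) and the 3 nearest genes of each member, of which 1 is not reported here. Members, lists and alternatives were chosen with earlier results of these data known.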

Additional observations from a re-analysis of the deposited data

Results flagged for a closer look

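Slit3 had ratios on opposite sides of 1 in the classes, with a log2 injured over naive ratio of 0.18 in inhibitory-like and -0.062 in excitatory-like nuclei. There is 1 library per group, the excitatory interval includes 1, thinning to equal depth made the excitatory value 0.05, and the difference between classes was not tested.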

How the results depend on the processing

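No paired analysis was possible because each group has 1 pooled library. Of 255 recomputed injured over naive values of members 200 stayed within the interval of the value reported and 55 did not, and of 216 inhibitory over excitatory values 122 and 94. The log2 ratio of Slit2 in inhibitory-like nuclei was 0.65 in nuclei with Y-linked and no Xist UMI, 0.29 without the groups from re-clustered clusters (chosen after seeing the data), 0.35 from the deposited normalized values and 0.17 with clusters at the same weight. Members called higher there were 2 with nuclei classed by their own transmitter genes, in Y-linked nuclei or with median scaling (Slit2 and Unc5d each time), and 0 when thinned, without the re-clustered groups, from the normalized values or at 1.5-fold; with clusters at the same weight the 1 called was Slit3, not Slit2. In Y-linked nuclei 2 members were higher in excitatory-like nuclei (Dcc and Unc5c), and 2 in inhibitory-like against excitatory-like nuclei. Pathway genes called higher in inhibitory-like nuclei were 1 to 5 under 8 alternatives: 1 with own transmitter genes, with guidance genes among the variable genes, at Leiden resolution 2 or without Scrublet doublets, 2 in Xist nuclei or when thinned, 3 with median scaling and 5 in Y-linked nuclei. Those called lower were 1 with own transmitter genes, median scaling or at 1.5-fold, and 4 in Y-linked nuclei. In excitatory-like nuclei 3 were higher in Y-linked nuclei and 1 when thinned, and 5 lower with own transmitter genes and 0 at 1.5-fold. The causes were not tested, apart from the changes of weight and threshold, which are the alternatives themselves. Depth limits Ntn1 most.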
